A study of Ovis aries with 18 samples.

Results

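The rows described here are oar-miR-221, which carries a sheep miRNA name, and X_36142, a predicted locus that the authors list with the seed of the cattle miRNA bta-miR-221. They were taken by name, as every row whose own name or seed name is that of miR-221 or miR-222. They are 2 of 495 rows in the table for extracellular vesicles of the uterine lumen and the same 2 of 761 rows in the table for endometrium, the lining of the uterus. No row in either table is named for miR-222. A seed is the short stretch near the 5′ end of a miRNA that pairs with target transcripts. In mammals miR-221 and miR-222 have the same seed, so the seed name of X_36142 cannot tell these miRNAs apart, and the row is called by its identifier.

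All ewes (Ovis aries) were ovariectomized and given 50 mg of progesterone (P4) each day for 14 days. In the P4+RU486 group 50 mg of RU486 (mifepristone), an antagonist of the progesterone receptor, was added daily from day 8, and in the P4 group it was not. Small RNA was sequenced from vesicles flushed out of the lumen (4 libraries per treatment, from separate ewes) and from endometrium (5 per treatment). The comparison asks which miRNAs of each differ with the receptor antagonist. A flush collects vesicles from every cell that sheds into the lumen, so fewer vesicles of one cell type and less of a miRNA per vesicle cannot be told apart.

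In mammals miR-221 and miR-222 are made from neighbouring hairpins on the X chromosome and are thought to come from a shared primary transcript. In human cells they hold down CDKN1B (p27), an inhibitor of the cell cycle, the receptor tyrosine kinase KIT and the oestrogen receptor ESR1. They are abundant in endothelium, vascular smooth muscle and blood cells, where they bear on growth and migration. In RefSeq's gene table of the sheep assembly ARS-UI_Ramb_v3.0, which is not the build the authors used, MIR221 lies on chromosome X within the span of the long non-coding RNA gene LOC105605445. The nearest protein-coding genes there are LOC101108192 on one side and ZNF674 on the other.

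The vesicle values are normalized CPM, that is reads scaled to a common total, with a library size adjusted by the authors. Libraries are called R01 to R04 (P4+RU486) and P01 to P04 (P4), since the column names give the treatment but not the ewe. They held from 101186 to 328453 reads in listed rows in P4+RU486 and from 97202 to 1062646 in P4. P01, P04 and R04 were the shallowest, and P01 had the adjustment factor farthest from 1, at 1.31. Intervals for reads cover counting error only.

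In vesicles both rows had lower mean levels with RU486, by 0.643 times for oar-miR-221 and 0.599 times for X_36142 (P4+RU486 over P4), and neither difference passed the test over all rows. The groups of X_36142 did not overlap, and those of oar-miR-221 overlapped by 1 library pair.

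oar-miR-221 stood at 1014, 946, 880 and 1107 normalized CPM in the P4+RU486 libraries R01 to R04, against 1084, 1608, 1723 and 1717 in the P4 libraries P01 to P04. Of the 16 pairs of a P4+RU486 and a P4 library, the P4+RU486 value was the lower in 15, the exception being R04 over P01. The means were 986 ± 97.0 in P4+RU486 and 1533 ± 303.9 in P4 (SD, n = 4 each). The log2 difference was -0.62 (SE 0.26, 95% interval -1.17 to -0.06), with a limma p of 0.0332 and an adjusted p of 0.317 by Benjamini-Hochberg over 229 rows. An exact two-sided permutation test of the log2 values over the 8 libraries gave p = 0.0571.

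X_36142 was the more abundant row in every library. It stood at 2126, 2239, 1702 and 2412 normalized CPM in R01 to R04 (P4+RU486), against 2915, 4201, 2746 and 4293 in P01 to P04 (P4). All 4 P4+RU486 libraries lay below all 4 P4 libraries. P02 and P04 were high within P4, while P01 and P03 lay closer to the P4+RU486 range. The means were 2120 ± 302 in P4+RU486 and 3539 ± 822 in P4 (SD, n = 4 each). The log2 difference was -0.72 (SE 0.25, 95% interval -1.27 to -0.17), with a limma p of 0.0139 and an adjusted p of 0.285. The exact two-sided permutation test gave p = 0.0286, the smallest value that 4 against 4 libraries can give. Any row whose groups do not overlap, in either direction, gets this value.

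**Figure D1:**
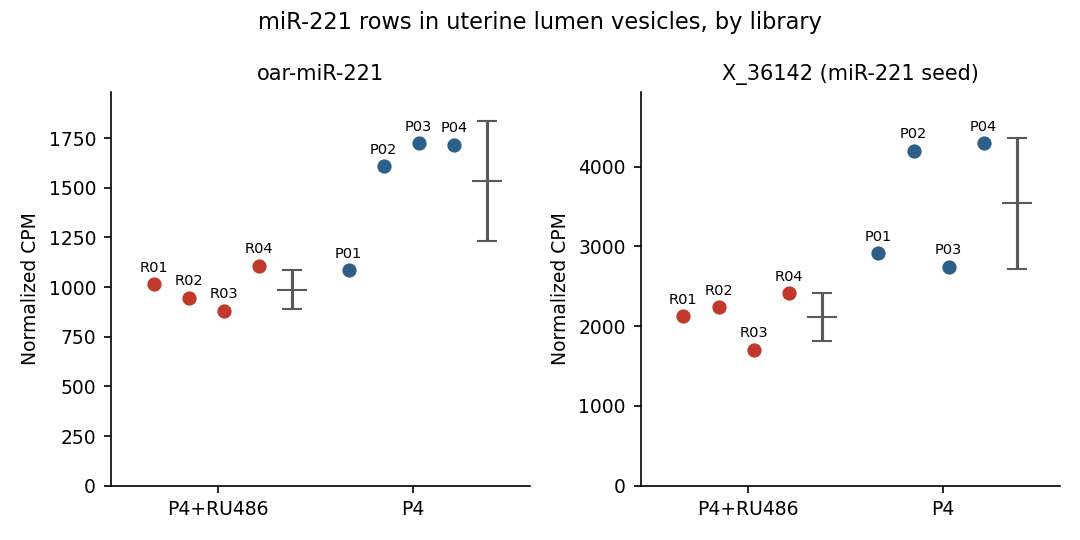
Normalized CPM of oar-miR-221 (left) and X_36142 (right) in each vesicle library of P4+RU486 (red) and P4 (blue), with the mean and SD of each group (n = 4) as the grey bar beside its points. X_36142 shows no overlap between treatments, whereas R04 (1107) lies just above P01 (1084) for oar-miR-221.

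Neither row passed at an adjusted p of 0.05, where 0.437% of the 229 tested rows did (1 row, oar-miR-99a). Both rows were among those lower in P4+RU486 at an unadjusted p under 0.05, which held for 6.99% of all rows. X_36142 had the 9th smallest p of all rows and the 4th smallest among the 111 lower ones. oar-miR-221 was 24th and 13th. Of all rows, 5.24% (12 of 229) had every P4+RU486 library below every P4 library, X_36142 among them. In a further 11 rows every P4+RU486 library lay above every P4 library. The median log2 difference over all 229 rows was 0.04.

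In the order of all rows by size, the log2 difference of X_36142 was the 36th lowest of 229 and that of oar-miR-221 the 38th lowest. Their spread within treatments was small. The residual SD on the log2 scale was 0.29 for X_36142 and 0.25 for oar-miR-221, where the median row had 0.66. Among rows within 2-fold of the same mean level, 5 of 30 had a smaller SD than X_36142, and 4 of 35 had a smaller SD than oar-miR-221. Among the same 30 and 35 rows, 2 had a smaller p than X_36142 and 8 a smaller p than oar-miR-221.

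**Figure D2:**
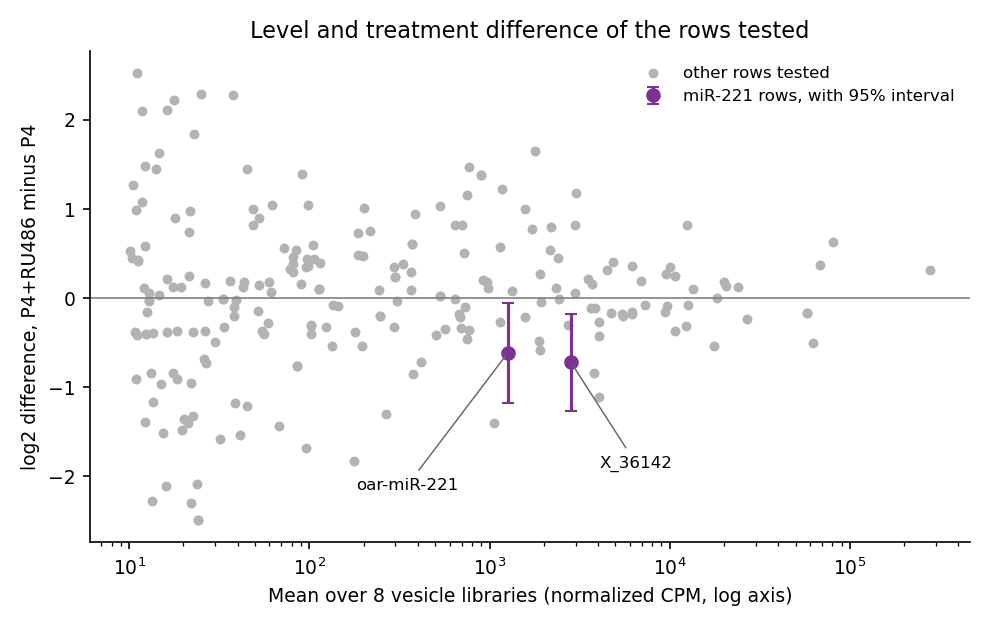
Mean level over the 8 vesicle libraries (normalized CPM, log axis) against the log2 difference, P4+RU486 minus P4, for each of the 229 tested rows (grey) and for the miR-221 rows (purple, with the 95% interval of limma). The intervals of both lie below 0, at -0.62 for oar-miR-221 and -0.72 for X_36142, and rows of lower mean level spread more widely.

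The reads behind these values limit the precision of single libraries. oar-miR-221 had 235, 302, 184 and 106 reads in R01 to R04 (P4+RU486), against 138, 859, 1568 and 180 in P01 to P04 (P4). The 106 reads of R04 have an exact Poisson 95% interval of 86.8 to 128 reads and the 138 reads of P01 one of 116 to 163 reads. In P4+RU486 the libraries of oar-miR-221 had a coefficient of variation of 9.83%, where counting error alone was 5.75% to 9.71% per library. In P4 it was 19.8%, against counting errors of 2.53% to 8.51%. For X_36142, with 231 to 715 reads per library in P4+RU486 and 371 to 2499 in P4, the coefficients of variation were 14.3% in P4+RU486 and 23.2% in P4.

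As shares of the reads in listed rows, which use no adjustment factor, both rows separated the treatments. oar-miR-221 took 0.0961%, 0.0919%, 0.0896% and 0.105% in R01 to R04 (P4+RU486), against 0.142%, 0.150%, 0.148% and 0.184% in P01 to P04 (P4). On this scale all P4+RU486 libraries were below all P4 libraries, and P01 no longer overlapped them. How many of all rows separated on this scale was not counted. Use of library totals also moved the median log2 difference of all rows, by -0.08. X_36142 took from 0.173% to 0.228% in P4+RU486 and from 0.235% to 0.461% in P4. Its gap was narrow, between R04 in P4+RU486 and P03 in P4. With median-of-ratios factors the libraries of X_36142 did overlap and those of oar-miR-221 did not.

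The order of the rows within a library gives a measure that no scaling can alter. oar-miR-221 was the 65th, 69th, 71st and 61st most abundant of the 495 rows in R01 to R04 (P4+RU486), against 56th, 55th, 56th and 50th in P01 to P04 (P4). It thus ranked lower in every P4+RU486 library, though how many of all rows did so was not counted. X_36142 was 50th, 47th, 57th and 41st in P4+RU486, against 37th, 33rd, 42nd and 36th in P4. Here R04 ranked above P03, so the ranks of X_36142 overlapped by 1 library pair. Over all 8 libraries X_36142 was the 44th most abundant row and oar-miR-221 the 60th.

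Together the rows took 0.298%, 0.310%, 0.263% and 0.333% of the reads in R01 to R04 (P4+RU486), against 0.524%, 0.543%, 0.383% and 0.646% in P01 to P04 (P4). The highest P4+RU486 library lay below the lowest P4 library. How many of all rows separated as shares of reads was not counted. In normalized CPM 5.24% of the tested rows separated in this direction. The balance between the rows separated the treatments less. X_36142 was 2.10, 2.37, 1.93 and 2.18 times as high as oar-miR-221 in R01 to R04 (P4+RU486), against 2.69, 2.61, 1.59 and 2.50 times in P01 to P04 (P4). These ratios averaged 2.14 ± 0.180 in P4+RU486 and 2.35 ± 0.509 in P4 (SD, n = 4 each). In 3 P4 libraries the ratio was higher than in any P4+RU486 library, and in P03 it was lower than in any. These are ratios of read levels, not of molecules.

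**Figure D3:**
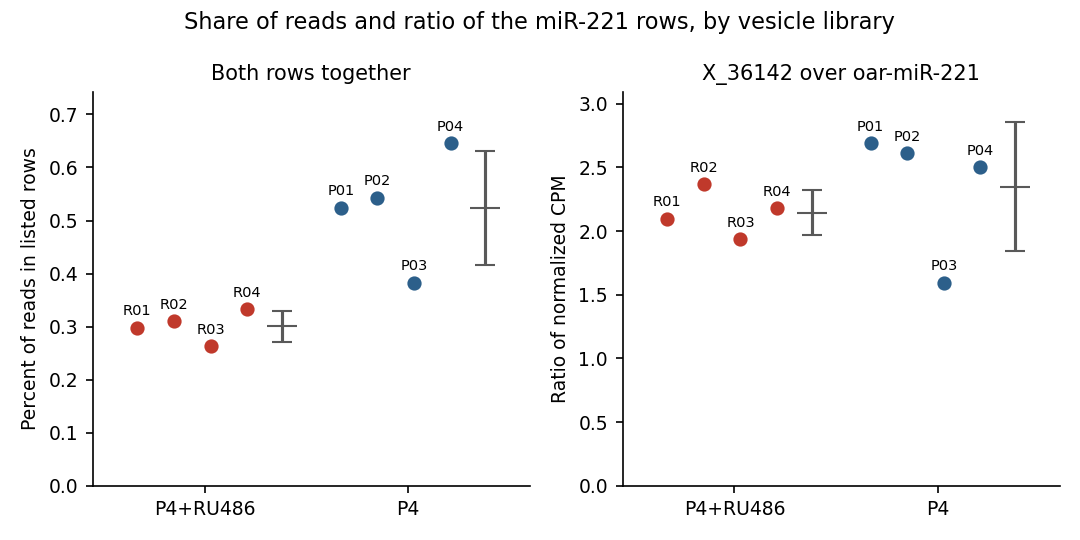
Percent of the reads in listed rows held by both rows together (left) and the ratio of X_36142 to oar-miR-221 in normalized CPM (right), by vesicle library of P4+RU486 (red) and P4 (blue), with the mean and SD of each group (n = 4) beside the points. The share separates the treatments (0.263% to 0.333% in P4+RU486, 0.383% to 0.646% in P4), while the ratio does not, with P03 lowest at 1.59. How many of all rows separate as shares was not counted.

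The likeness of other rows was measured as Pearson's r of log2(value + 1) over the 8 libraries among tested rows with a mean of at least 50. It is given as a description, since all points share the same libraries, depths, adjustment factors and treatments. miR-30d, a member of the miR-30 family, was the row most like either one, at r = 0.87 with oar-miR-221 and 0.88 with X_36142. With treatment means removed, its r was 0.62 with oar-miR-221 (ranked 26th) and 0.63 with X_36142 (ranked 5th). The miR-221 rows were the 2nd and 3rd most like each other, at r = 0.84. With treatment means removed, r between them was 0.51, which ranked 42nd for oar-miR-221 and 13th for X_36142.

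Next for oar-miR-221 came 7_32409 with the seed of bta-miR-2284x (r = 0.81), 19_14400 with the seed of miR-425-5p (0.79) and oar-miR-99a (0.74), whose family targets the kinase mTOR. For X_36142 these were X_36488 with the seed of miR-96 (0.87), 19_14400 (0.80) and oar-miR-99a (0.80). oar-miR-99a was at 584 normalized CPM in P4+RU486 and 1541 in P4. With treatment means removed, its r was -0.53 with oar-miR-221 and -0.10 with X_36142. For 7_32409, at 3609 normalized CPM in P4+RU486 and 4442 in P4, r with oar-miR-221 was 0.89 with treatment means removed.

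Other miRNAs that target CDKN1B, ESR1 or KIT in human cells were described as lists, of which 10 rows were tested. None of these rows passed the threshold with limma, edgeR or DESeq2, and 1 had an unadjusted limma p under 0.05 (5_29566), which held for 14.4% of all 229 rows. A row matched by its seed name may be another miRNA of that seed. For CDKN1B (miR-24, miR-148a, miR-152 and miR-196), 4 of 6 tested rows were higher and 2 lower, with a median log2 difference of 0.17. The 2 lower rows, 5_28971 and 2_16698 with the miR-24-3p seed, had identical values and may hold the same reads, and with them merged 4 of 5 rows were higher (median 0.22). miR-148a averaged 24612 ± 4524 normalized CPM in P4+RU486 and 23038 ± 6520 in P4 (SD, n = 4 each). The row 3_26580, listed with the miR-148a seed, averaged 334 ± 75.1 in P4+RU486 and 259.7 ± 51.1 in P4.

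For ESR1, 4 of 7 listed miRNAs matched a row, with none for miR-20b, miR-193b or miR-206. The 2 rows with enough reads to be tested were both lower, with a median log2 difference of -0.75. miR-22-3p was at 7070 ± 865 in P4+RU486 and 7560 ± 1662 in P4 (SD, n = 4 each), a log2 difference of -0.08 (SE 0.23). The row 5_29566, with the seed of the smooth muscle miRNA miR-145, ran from 15.7 to 57.4 in P4+RU486 and from 38.2 to 181 in P4 (limma adjusted p = 0.317). For KIT, 3 of 5 listed miRNAs matched a row, with none for miR-34a or miR-193b, and oar-miR-494-3p was too low to be tested. The 2 rows tested were both lower and at low levels, with a median log2 difference of -1.37. In P4+RU486 miR-218a went down to 0, where such a difference can be too large. The row 24_21619, with the miR-193a-3p seed, was at 19.7 ± 22.9 in P4+RU486 and 44.0 ± 34.5 in P4, and miR-218a was at 9.91 ± 9.63 in P4+RU486 and 17.3 ± 14.5 in P4.

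Markers of cells that could shed into the lumen were set beside these values. The single endothelial marker, miR-126, matched no row. Of the leukocyte markers 4 of 6 matched, at a summed level of 2286 to 5094 normalized CPM in P4+RU486 and 2512 to 14818 in P4, highest in P01, and miR-146a and miR-223 matched no row. Of these 4 rows 3 were lower in P4+RU486, and none passed. The summed level was mostly oar-miR-150, which ran from 1462 to 4318 in P4+RU486 and from 1714 to 13655 in P4. It thus describes that row more than leukocytes as a whole. P01 had the highest sum and the least oar-miR-221 of the P4 libraries, while X_36142 was lowest in P03 (2746, against 2915 in P01). As a share of reads, oar-miR-221 was at 0.142% in P01 and 0.148% in P03. A link between these levels was not tested.

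Smooth muscle markers (2 of 5 matched, with none for miR-1, miR-133a or miR-133b) summed to 9730 to 14935 in P4+RU486 and 10828 to 16531 in P4. Both matched rows were lower in P4+RU486, and neither passed. A row named oar-miR-133, with no letter and so outside those names, is added with its values already known. It averaged 10.9 ± 4.61 in P4+RU486 and 29.3 ± 11.0 in P4 (SD, n = 4 each), with no overlap between treatments (limma adjusted p = 0.334). Such a separation in this direction held for 5.24% of all rows. In P01, P04 and R04, 3 reads were worth 23.6 to 31.3 normalized CPM, so values at this level rest on few reads there. The erythroid markers had 1 of 3 matched (a miR-486 seed), at 1848 to 5427 in P4+RU486 and 281 to 7365 in P4, with none for miR-144 or miR-451. Epithelial markers (4 of 7 matched, in 6 rows) summed to 15180 to 21053 in P4+RU486 and 8965 to 35369 in P4, with none for miR-141, miR-203 or miR-429. Of the 6 epithelial rows 5 were higher in P4+RU486 and 1 lower, and the erythroid row was higher. None of them passed. The summed level overlapped between treatments in each of these lists. Their part in the levels of the miR-221 rows was not tested.

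The direction of both rows was the same in all settings tried. Over 8 fits that each left out 1 library, the log2 difference of oar-miR-221 ran from -0.77 to -0.55 and that of X_36142 from -0.83 to -0.62. The unadjusted limma p of oar-miR-221 was 0.05 or over in 6 of these 8 fits (without P02, P03, P04, R01, R02 or R03), and that of X_36142 in 0 of 8 (highest 0.0477, without R03). Without the 3 shallowest libraries the log2 differences were -0.82 for oar-miR-221 and -0.76 for X_36142, with adjusted p-values of 0.254 and 0.275.

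**Figure D4:**
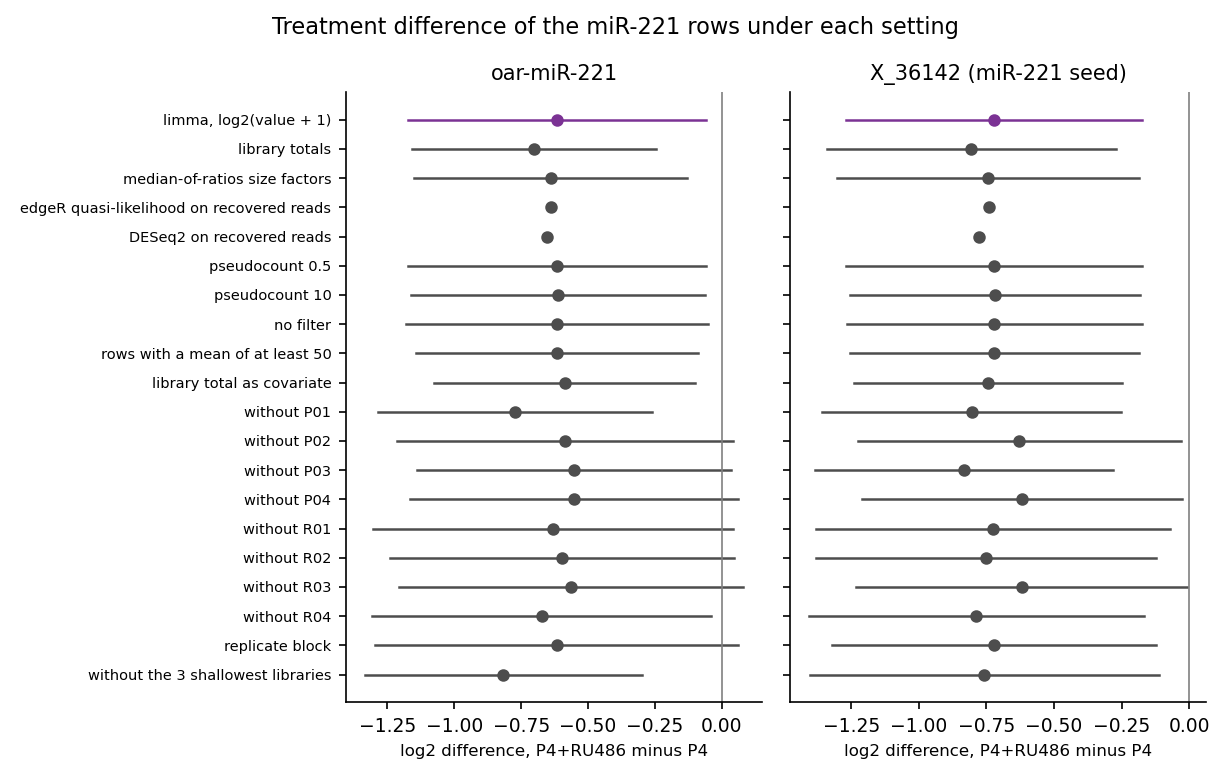
log2 difference, P4+RU486 minus P4, of oar-miR-221 (left) and X_36142 (right) under each setting, with limma's 95% interval where the setting gives one (edgeR and DESeq2 are drawn as points alone). All points lie below 0, from -0.82 to -0.55 for oar-miR-221 and from -0.83 to -0.62 for X_36142.

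The authors' deposited table for vesicles gives a fold of 1.55 for oar-miR-221 (adjusted p 0.96) and 1.67 for X_36142 (adjusted p 0.93). A positive fold there was read as a higher level in P4, since the sign matched the group means in 199 of 227 rows compared. Of the 495 vesicle rows in the authors' deposited table, 1.82% had an adjusted p under 0.05, and the miR-221 rows were not among them. For endometrium, the authors' deposited table gives signed folds of -1.34 for oar-miR-221 (adjusted p 0.663) and -1.10 for X_36142 (adjusted p 0.970). The group on top of that fold is not named, so no direction by treatment is stated. Of the 761 endometrium rows in the authors' deposited table, 1.18% had an adjusted p under 0.05, neither of these among them. There 310 rows had a larger fold size than oar-miR-221 and 541 a larger one than X_36142, around a median size of 1.25.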

How the data were processed

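Adapters were trimmed with cutadapt 1.11, the build was Oar_v3.1 and edgeR was used, per the submitters' processing notes. For the aligner and the miRNA caller, nothing is given in the sources used here. For vesicles the authors deposited a normalized signal, CPM on a TMM-adjusted library size. They were whole multiples of 1 read in 100% of values (tolerance 0.1 read), so reads were recovered, and 1 read was worth 1.10 to 10.4 normalized CPM. The deposited signed fold is a score in which a fold under 1 is minus its inverse, and it stands beside the authors' adjusted p-value. The 10 endometrium columns with values per library match no label and were not used.

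The test was limma 3.58.1 (trend, R 4.3.3) on log2(value + 1) for the 229 vesicle rows with a mean of at least 10, adjusted over all of them (Benjamini-Hochberg, 0.05). For rows with few reads such differences can be too small, and too large where some libraries have 0 reads. edgeR 4.0.16 and DESeq2 1.42.0 on the recovered reads were alternatives. The procedure was tested on simulated data, with planted differences larger than those of the miR-221 rows. That test does not show how often differences of their size would be found. Rows, lists and tests were chosen with earlier results of these data known. Named rows are both miR-221 rows, the 5 rows most like each, and the 2 most abundant of each target list (1 further list of the design is not reported here). Low values were not counted as absence: 3 reads, the floor for a count of 0, were 3.30 to 31.3 normalized CPM.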

Additional observations from a re-analysis of the deposited data

Results flagged for a closer look

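oar-miR-221 in P01, at 1084 normalized CPM, lay apart from the other P4 libraries. On the log2 scale its gap to the nearest was 0.851 of the range of the group, above Dixon's 95% critical value for 4 libraries. On the linear scale the gap did not exceed it. The ratio of X_36142 to oar-miR-221 in P03, at 1.59, was apart from the other P4 libraries in the same way, with a gap of 0.861 of the range on the log2 scale. Of 28 such comparisons 2 passed this limit, and chance alone passes about 1 in 20. The comparisons are not independent, since measures share the same rows and each was tried on both scales. The count therefore cannot be weighed against that rate.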

How the results depend on the processing

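The direction of both rows and their side of the threshold held in each of 19 alternatives. Adjusted p-values ran from 0.0740 (DESeq2, for both rows) to 0.543 for oar-miR-221 and 0.518 for X_36142. The number of rows past the threshold was 1 in the limma fit, 5 with DESeq2 (2 higher, 3 lower), 6 with the library total as a covariate (4 higher, 2 lower), and from 0 to 2 with 1 library left out. It was 0 without P04, R01, R03 or R04 and 2 without P02. The cause of these moves was not tested. Library totals shifted the median log2 difference of all rows by -0.08 and median-of-ratios factors by -0.02. The column numbers 1 to 4 occur in both treatments, but nothing ties a number to a ewe, batch or day. The deviations of same-numbered libraries correlated at only -0.24 to 0.18 over 229 rows. For none of these numbers was the correlation highest with the library of the same number. With the replicate block 0 rows passed, and the log2 differences kept adjusted p-values of 0.365 for oar-miR-221 and 0.306 for X_36142. Alternatives for endometrium were not run, since its library columns match no label. Depth limits the 3 shallowest libraries most, where 106 to 180 reads stand behind oar-miR-221.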
